A study of Mus musculus with 6 samples.

Results

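Kinesins are motor proteins that use ATP to move along microtubules or to take their ends apart. The genes were chosen by their symbol, as every entry of the count table that begins with Kif followed by a digit or the letter c. This gave 47 of 55571 symbols. Of these, 42 are kinesin motor genes, and the other 5 are Kif1bp, which encodes a kinesin-binding protein, the antisense gene Kif16bos and the pseudogenes Kif22-ps, Kif4-ps and Kifc5c-ps. By known role, 14 motors were listed as mitotic, of which 10 act in the spindle and 4 in the midzone and cytokinesis. A further 15 were listed as transport motors, 6 as motors of the cilium and 7 as regulators of microtubules or others. The family and its mitotic examples were proposed with results of this same comparison known. The counts and p-values given here therefore describe these libraries and support no claim about the family.

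RNA was sequenced from E0771 cells, a mouse mammary carcinoma line, under basal conditions. The cells of 3 libraries expressed an empty vector, and those of 3 libraries expressed wild-type Malt1 (Malt1-WT), a paracaspase that acts as scaffold and protease upstream of NF-kB. Both groups are the same line, and the labels do not say how Malt1 was introduced, whether the cells are 1 clone, or whether the libraries came from separate cultures. The p-values thus measure the spread between these libraries, which may be technical.

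During cell division, mitotic kinesins build the bipolar spindle, align and separate chromosomes and then organise the midzone where the cell divides. Their transcripts are known to peak in the G2 and M phases of the cell cycle. Transport kinesins carry organelles, vesicles and RNA towards microtubule ends and are needed in cells that divide and in cells that do not. Kif11, Kif2c, Kif20a and Kif23 are the mitotic motors that the comparison names, and the question it addresses is how mitotic and transport kinesins differ between the Malt1-WT and vector cells.

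Total counts ranged from 17601656 to 20543778 per library. Malt1 itself was counted at 517, 633 and 611 in vector control replicates 1 to 3 and at 5526, 6176 and 5087 in Malt1-WT replicates 1 to 3, as the labels state. Its level was 10.2-fold higher in Malt1-WT (log2 fold change 3.34, SE 0.042, adjusted p = 4.11e-50). Of 13594 genes with enough counts to be tested, 8320 (61.2%) passed an adjusted p of 0.05, 4110 lower (30.2%) and 4210 higher (31%), and the median log2 fold change of all tested genes was -0.00. At least 2-fold lower were 648 genes (4.77%). Markers of other cell types were checked as sums of scaled counts. The epithelial sum was 73.2 to 77.5 CPM (counts scaled to a common library size, with TMM factors) in the vector control and 64.3 to 69.8 CPM in Malt1-WT, with counts for 6 of 7 markers and Krt5 at 0. Most of it was the keratin gene Krt8, while the epithelial cadherin gene Cdh1 reached at most 0.409 CPM in a library and Krt19 at most 0.0559 CPM. The leukocyte sum was 4.25 to 5.21 CPM and 14.9 to 17.7 CPM, with counts for 7 of 8 markers and Tyrobp at 0, and most of it was the lysosomal gene Cd68. The macrophage gene Adgre1 rose from 0.0532 ± 0.0553 to 1.47 ± 0.256 CPM (adjusted p = 1.97e-09), and the pan-leukocyte gene Ptprc was at no more than 0.175 CPM. The endothelial sum was 4.58 to 5.84 CPM and 10.3 to 10.8 CPM, with counts for all 4 markers. The fibroblast sum was 342 to 364 CPM and 357 to 384 CPM, with counts for all 6 markers. Its members went both ways. Of 5 tested, Pdgfrb rose (log2 fold change 0.57, adjusted p = 8.65e-20). Pdgfra (-0.48, adjusted p = 1.24e-15) and Col1a1 (-0.88, adjusted p = 2.77e-11) fell, and 2 were not called. The neuron sum was at most 1.71 CPM, with 5 of 8 markers at 0. Whether the shifts in the epithelial, leukocyte and endothelial sums, or in single markers, have a part in the kinesin results was not tested.

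In many genes that peak in G2 and M, the promoter holds a cell cycle genes homology region (CHR), a short element bound by MuvB-type complexes, often with CCAAT boxes upstream. Promoter windows from RefSeq (GRCm38.p6), 250 bases before to 50 bases after a transcript start, were matched to 33 of the 42 motor genes. The 7 stretches printed here run from 90 bases before the start to the first 30 bases of the transcript and were chosen to show mitotic motors with and without a CHR beside transport motors. Capitals mark TTTGAA or TTCGAA (CHR) and CCAAT, on either strand, so that TTCAAA and ATTGG are the reverse matches. Neither motif contains the other.
Kif23 (chr9:61946770-61946889, minus strand): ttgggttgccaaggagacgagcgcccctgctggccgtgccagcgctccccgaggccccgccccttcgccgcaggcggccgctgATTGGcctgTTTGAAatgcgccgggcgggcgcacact
Kif18b (chr11:102925095-102925214, minus strand): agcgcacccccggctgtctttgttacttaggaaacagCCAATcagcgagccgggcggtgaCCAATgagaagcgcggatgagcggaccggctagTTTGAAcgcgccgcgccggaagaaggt
Kif20b (chr19:34922268-34922387, plus strand): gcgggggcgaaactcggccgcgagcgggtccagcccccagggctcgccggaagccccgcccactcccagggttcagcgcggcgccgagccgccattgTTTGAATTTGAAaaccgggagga
Kif11 (chr19:37376292-37376411, plus strand): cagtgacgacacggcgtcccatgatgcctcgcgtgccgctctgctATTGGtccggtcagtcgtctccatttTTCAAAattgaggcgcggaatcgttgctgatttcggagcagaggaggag
Kif18a (chr2:109280648-109280767, plus strand): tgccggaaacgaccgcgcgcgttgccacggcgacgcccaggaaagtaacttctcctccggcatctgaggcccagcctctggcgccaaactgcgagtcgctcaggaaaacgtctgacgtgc
Kif3a (chr11:53567279-53567398, plus strand): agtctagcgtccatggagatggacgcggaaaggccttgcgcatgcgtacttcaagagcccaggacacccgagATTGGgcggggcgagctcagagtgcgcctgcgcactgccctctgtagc
Kif3c (chr12:3365042-3365161, plus strand): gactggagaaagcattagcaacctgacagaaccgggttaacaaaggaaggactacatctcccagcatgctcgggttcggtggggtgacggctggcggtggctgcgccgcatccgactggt
Kif23, Kif18b and Kif20b carry a CHR just after the start, and Kif20b has a pair of them end to end. Kif11 carries a reverse CHR 19 bases before its start, and Kif18a has no match to either motif in its stretch. Kif3a has only a reverse CCAAT box, and Kif3c has no match.

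Across the full windows, a CHR was found in 10 of the 11 matched mitotic kinesins that were tested (90.9%), with Kif18a as the exception. It was found in 0 of the 8 matched transport kinesins that were tested and in 19.2% of all 32851 windows. A CHR together with a CCAAT box was found in 7 of the 11 mitotic kinesins (63.6%) and in 7.53% of all windows. Not every match lies near the start: the CHR of Kif14 begins 228 bases before it and that of Kif2c 103 bases before it, and both RefSeq starts lie inside the longer GENCODE gene. Within 50 bases of the start, a distance chosen after the matches were seen, 8 of the 11 mitotic kinesins (72.7%) and 5.31% of all windows held a CHR. The 8 matched transport kinesins that were tested, all without a CHR, were Kif1b, Kif1c, Kif3a, Kif3b, Kif3c, Kif5c, Kif13a and Kif16b. Among the 4 matched members of the cilium and other lists that were tested, Kif24 alone held a CHR. Of the motors with too few counts to test, Kif1a, Kif27 and Kif26b also held a CHR, as did Kif11. These matches describe letters in a window and are not binding sites.

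**Figure D1:**
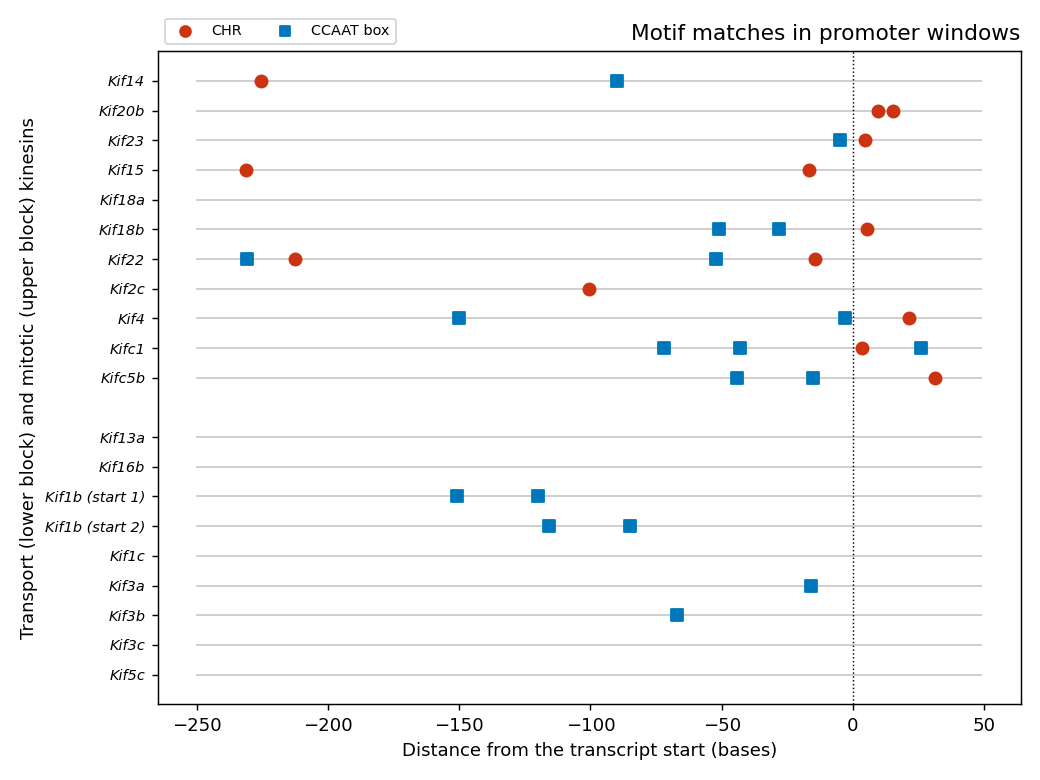
Motif matches in the promoter windows of tested mitotic (upper block) and transport (lower block) kinesins, as distance in bases from the transcript start, with circles for the CHR and squares for the CCAAT box at the middle of each match. Circles are on 10 of the 11 tested mitotic genes and on none of the 8 tested transport genes, of which Kif1b has 2 starts.

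The mitotic kinesins were lower in Malt1-WT as a block. All 12 of the 14 mitotic motors that could be tested fell, 11 of them by at least 2-fold, with a median log2 fold change of -2.00 and a range from -2.45 to -0.96. This count depends on how the motors were listed. Kif2a, which works both in and outside mitosis, was listed among the other motors and is not counted here. Its log2 fold change was 0.01 and it was not called (adjusted p = 0.883). Of all tested genes, 30.2% were called lower and 4.77% were at least 2-fold lower. The mitotic examples were chosen with this contrast known, so nothing is read from the difference. In each of the 12, every Malt1-WT library lay below every vector library, a separation whose share among all tested genes was not computed. In bulk RNA, fewer cells in mitosis and less of these transcripts per cell cannot be told apart.

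Kif2c encodes a kinesin-13 that does not walk but takes microtubule ends apart at centromeres, where it corrects wrong attachments. It was at 111, 116 and 122 CPM in vector control replicates 1 to 3 and at 21.2, 20.5 and 22.2 CPM in Malt1-WT replicates 1 to 3. The vector libraries were about alike and all far above the Malt1-WT libraries. From 116 ± 5.50 to 21.3 ± 0.858 CPM (SD, n = 3 here and in all following means), this was the largest drop in the family, 5.46-fold (log2 fold change -2.45, SE 0.054, adjusted p = 5.16e-39). Ranked from the most lowered of all 13594 tested genes, Kif2c stood at 41 and Kif20a at 44. The related Kif2a, which shares the depolymerase activity and also works outside mitosis, was at 86.3, 83.8 and 85.5 CPM in the vector control and 86.3, 82.3 and 88.6 CPM in Malt1-WT. Its groups overlapped, and its log2 fold change of 0.01 (adjusted p = 0.883) did not pass. The deposited counts for Kif2a could include reads of Dimt1, which overlaps 19.2% of its exon bases on the opposite strand and was not called either.

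Kif18a and Kif18b are kinesin-8 motors that damp microtubule growth, Kif18a at chromosome attachments and Kif18b on the astral microtubules. Kif18a was at 48.4, 44.8 and 44.4 CPM in the vector control and at 9.45, 9.64 and 9.42 CPM in Malt1-WT. Kif18b was at 87.3, 86.1 and 86.3 CPM and at 31.0, 29.1 and 31.9 CPM. Both pairs of groups were apart, and the drop was 4.82-fold for Kif18a (log2 fold change -2.27, SE 0.078, adjusted p = 1.32e-30) and 2.83-fold for Kif18b (-1.50, SE 0.053, adjusted p = 3.57e-30). Kif18a is the matched and tested mitotic motor without a CHR in its window, and Kif18b has one. Whether the motif has a part in the size of either drop was not tested.

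The chromokinesins Kif22 and Kif4 bind chromosome arms; Kif22 pushes them outward and Kif4 helps to compact them and to limit the length of the midzone. Kif22 was at 112, 115 and 114 CPM in the vector control and at 28.6, 27.9 and 28.5 CPM in Malt1-WT. Kif4, the most abundant spindle motor by count, was at 124, 120 and 124 CPM and at 44.4, 40.3 and 37.7 CPM. Every vector library was above 110 CPM for both genes, and no Malt1-WT library reached 45 CPM. The log2 fold changes were -2.00 for Kif22 (SE 0.049, adjusted p = 6.91e-37) and -1.59 for Kif4 (SE 0.049, adjusted p = 7.92e-33). Pdzd11 overlaps 15.1% of the exon bases of Kif4 on the opposite strand, and its own level was 0.837-fold that of the vector control.

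Kif15 and Kif11 both push spindle poles apart, Kif11 as the main motor and Kif15 as its backup. Kif15 was at 92.4, 90.9 and 91.1 CPM in the vector control and at 24.0, 22.4 and 25.6 CPM in Malt1-WT. This was a 3.82-fold drop with no overlap (log2 fold change -1.93, SE 0.055, adjusted p = 4.87e-34). Kif11 had 1 count in vector control replicate 3 and 0 counts in the other 5 libraries, so no fold is given for it. Of the comparisons of level it enters only the sums over all listed motors, to which it adds almost nothing. It is listed with almost no counts in cells in which other mitotic motors are abundant. The annotation gives Kif11 on chr19:37376403-37421859 (plus strand, GRCm38), with no exon shared with another gene and no 100-base stretch of its transcript repeated in another gene. Of its neighbours, Exoc6 had 2592 counts over the 6 libraries and Ide 349, while Hhex had 0. The cause of the low Kif11 count was not tested.

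Kifc1 is a minus-end motor that focuses spindle poles and gathers extra centrosomes. It was at 92.9, 90.6 and 95.2 CPM in the vector control and at 22.4, 22.2 and 20.5 CPM in Malt1-WT, a 4.27-fold drop (log2 fold change -2.09, SE 0.056, adjusted p = 2.12e-35). Kifc5b is a near copy of Kifc1 in the mouse. It was at 24.7, 29.0 and 24.2 CPM and at 13.0, 13.3 and 13.8 CPM, the smallest drop of the tested mitotic motors at 1.95-fold (-0.96, SE 0.087, adjusted p = 5.10e-14). The copies share 23.7% of the 100-base stretches of the Kifc1 transcript and 21.2% of those of Kifc5b, so reads could be split between them, and each value is uncertain for that reason.

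**Figure D2:**
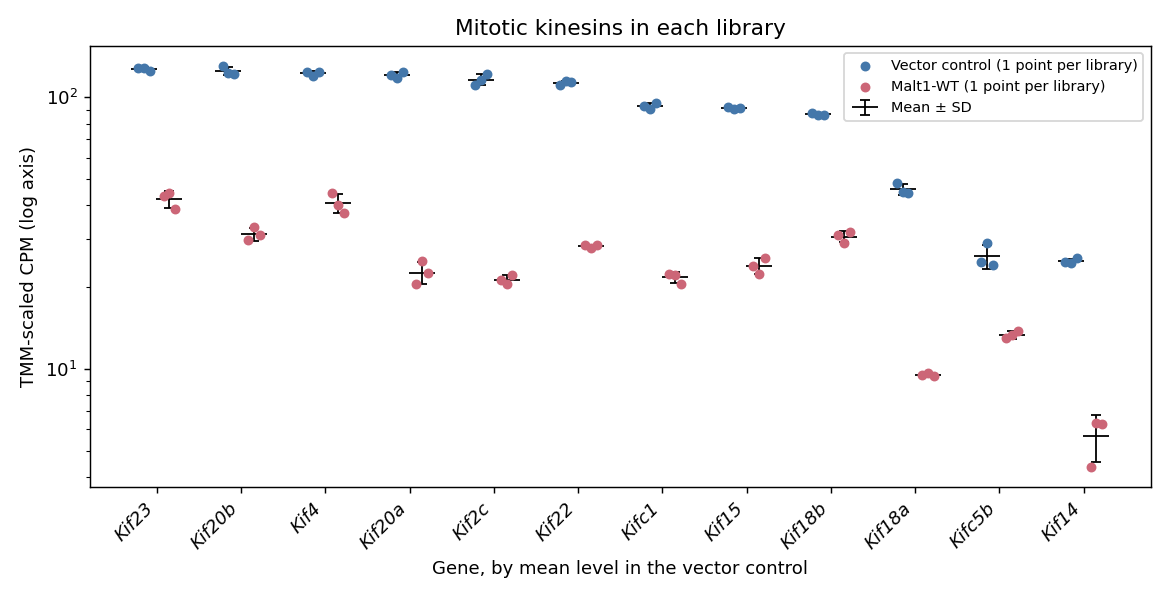
TMM-scaled CPM (log axis) of the 12 tested mitotic kinesins in each library, ordered by mean level in the vector control, with points for libraries and bars for mean ± SD (n = 3). In each gene all Malt1-WT points lie below all vector points, from Kif23 (127 to 42.2 CPM) to Kif14 (24.9 to 5.64 CPM). The share of all tested genes separated in this way was not computed.

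The motors of the midzone and of cytokinesis fell to a like degree, 4 of 4, with a median log2 fold change of -2.07 beside -1.97 for the 8 tested spindle motors. Kif20a carries the chromosomal passenger complex, which holds the kinase Aurkb and its scaffold Incenp, from chromosomes to the midzone. It was at 121, 118 and 124 CPM in the vector control and at 20.6, 24.9 and 22.5 CPM in Malt1-WT. All 3 Malt1-WT libraries were thus near 20 CPM where the vector libraries were near 120 CPM, a 5.32-fold drop (log2 fold change -2.41, SE 0.054, adjusted p = 1.23e-38). Cdc23 overlaps 29.3% of the exon bases of Kif20a on the opposite strand and was itself lower, at 0.561-fold (adjusted p = 3.14e-19). The sources used here do not say whether counting used strand, so the Kif20a value may hold some Cdc23 reads.

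Kif23 is the motor of centralspindlin, which it forms with the GTPase-activating protein Racgap1. Kif23 was the most abundant midzone motor in counts, at 128, 129 and 125 CPM in the vector control and 43.3, 44.3 and 38.8 CPM in Malt1-WT. Its 3.01-fold drop was the smallest of the midzone group (log2 fold change -1.59, SE 0.047, adjusted p = 1.77e-33). Racgap1 went from 374 ± 2.66 to 113 ± 4.57 CPM (log2 fold change -1.72, adjusted p = 3.57e-41), so the transcripts of both subunits fell. Protein was not measured.

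Kif20b acts in the last steps of cytokinesis, and Kif14 brings the kinase citron to the midbody. Kif20b was at 131, 123 and 122 CPM in the vector control and at 29.8, 33.2 and 31.1 CPM in Malt1-WT (log2 fold change -1.99, SE 0.050, adjusted p = 1.02e-36). Kif14 was at 24.7, 24.5 and 25.5 CPM and at 4.36, 6.29 and 6.26 CPM (-2.14, SE 0.107, adjusted p = 9.11e-24). Kif14 was the least abundant tested mitotic motor, and replicate 1 of Malt1-WT was its lowest library.

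The authors' deposited table gives an adjusted p under 0.05 to 11 of the 47 symbols, all lower in Malt1-WT. These are the tested mitotic motors other than Kifc5b. The share of all symbols called in that table was not computed, so nothing is read from the count of 11. In the authors' deposited table the log2 fold change is -2.46 for Kif2c and -2.43 for Kif20a. For 30 of the 47 symbols, Kif5b and Kif3c among them, the authors' deposited table lists a t statistic of 0. Each of these 30 has a log2 fold change of less than 1 in size there, with 0.38 for Kif5b and 0.69 for Kif3c. A t of 0 in that table thus does not mean no change. Kifc5b, at -0.97, has a t of 0 there, while Kif24, at -1.02, has a t of -0.23 and Kif16bos, at 1.03, one of 0.03. Among these symbols the t statistic thus leaves 0 at a log2 fold change of about 1 in size. The size of change that the authors tested against is not stated, and their calls and those given here are not alike.

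Transport kinesins moved little and in both directions. Of 15, 13 were tested: 4 rose, 5 fell and 4 were not called, and 0 changed by 2-fold in either direction. Their median log2 fold change was -0.06, and the range was -0.71 to 0.70. The count of 9 called out of 13 is near the 61.2% called among all tested genes.

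Kif5b is the ubiquitous heavy chain of conventional kinesin, which moves mitochondria, lysosomes and many vesicles. It was the most abundant kinesin by count, at 283, 282 and 297 CPM in the vector control and at 368, 385 and 380 CPM in Malt1-WT. All 3 Malt1-WT libraries were above all 3 vector libraries, a 1.32-fold rise (log2 fold change 0.40, SE 0.031, adjusted p = 3.24e-16). The heavy chains Kif5a and Kif5c are mainly neuronal and were scarce here. Kif5a fell from 5.61 ± 0.560 to 3.44 ± 0.314 CPM (-0.71, SE 0.165, adjusted p = 2.09e-04), and Kif5c, at 0.497 to 1.03 CPM over the 6 libraries, was not called (adjusted p = 0.902).

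Kinesin-2 motors carry membrane cargo and, as the pair of Kif3a with Kif3b, move proteins into the cilium. Kif3b was at 75.1, 73.5 and 79.4 CPM in the vector control and at 89.8, 83.1 and 96.3 CPM in Malt1-WT (log2 fold change 0.24, SE 0.047, adjusted p = 2.26e-05). Kif3c, which can also pair with Kif3a, was at 37.4, 42.2 and 39.4 CPM and at 65.2, 65.5 and 62.6 CPM, 1.62-fold higher (0.70, SE 0.055, adjusted p = 4.20e-16). Both rose without overlap of the groups, while Kif3a had a log2 fold change of 0.09 that was not called (adjusted p = 0.113). Antisense genes overlap 40.7% of the exon bases of Kif3c, and one of them, 1110002L01Rik, went from 11.1 ± 1.17 to 14.4 ± 2.91 CPM. Kif17, a kinesin-2 that works as a homodimer, had 0 counts in each vector library and 5, 2 and 2 counts in Malt1-WT, too few to test. Sh2d5 overlaps 1.6% of the exon bases of Kif17 on the same strand and rose from 1.83 ± 0.454 to 9.25 ± 0.351 CPM. Whether the Kif17 counts hold reads of Sh2d5 was not tested.

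The kinesin-3 motors, which carry vesicles, mitochondria and endosomes, went both ways. Kif1b fell from 202 ± 5.51 to 159 ± 4.11 CPM (log2 fold change -0.35, SE 0.035, adjusted p = 1.50e-12). Kif1c fell from 207 ± 7.50 to 193 ± 3.44 CPM (-0.10, adjusted p = 0.00681), and the endosome motor Kif16b fell from 43.6 ± 1.04 to 38.6 ± 2.94 CPM (-0.17, adjusted p = 0.0121). Kif13b rose, at 31.9, 28.5 and 30.8 CPM in the vector control and 33.6, 35.9 and 32.8 CPM in Malt1-WT (0.17, SE 0.066, adjusted p = 0.0242), and its relative Kif13a was not called (-0.07, adjusted p = 0.332). The calls of Kif13b, Kif1c and Kif16b each depended on single libraries: without vector control replicate 2 the adjusted p of Kif13b was 0.166, without Malt1-WT replicate 2 it was 0.17, without vector control replicate 3 that of Kif1c was 0.086, and without Malt1-WT replicate 3 that of Kif16b was 0.106. Kif13b also missed the threshold with DESeq2, at 0.0604. Kif1a, which carries synaptic vesicle precursors, had at most 3 counts in a library.

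The minus-end transport motor Kifc3 fell from 29.5 ± 1.82 to 23.9 ± 1.12 CPM (log2 fold change -0.31, SE 0.072, adjusted p = 2.56e-04). Kifc2 had 20, 15 and 8 counts in vector control replicates 1 to 3 and 18, 26 and 22 counts in Malt1-WT, and was not called at a log2 fold change of 0.70 (SE 0.371, adjusted p = 0.101). Without vector control replicate 1 its log2 fold change was 1.06 and its adjusted p 0.0357.

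**Figure D3:**
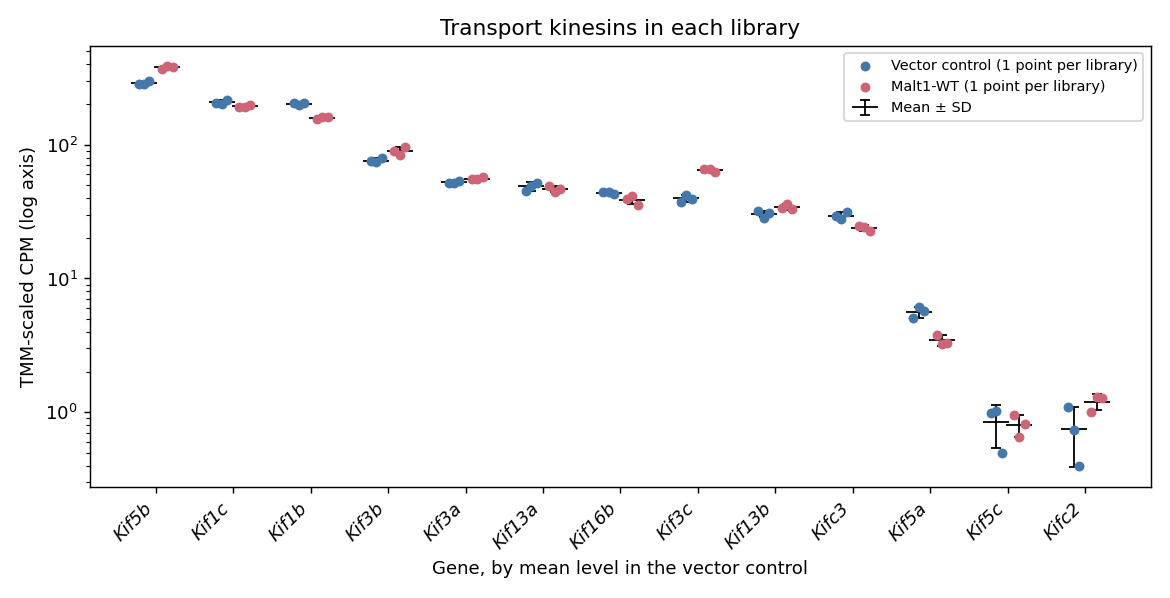
TMM-scaled CPM (log axis) of the 13 tested transport kinesins in each library, ordered by mean level in the vector control, with points for libraries and bars for mean ± SD (n = 3). Kif5b (287 to 378 CPM) and Kif3c (39.7 to 64.4 CPM) were higher in Malt1-WT, Kif1b (202 to 159 CPM) was lower, and the groups of Kif5c overlap.

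Of the 6 kinesins of the cilium, 2 were tested. Kif24 sits on the mother centriole and holds back the growth of a cilium. It was at 15.0, 14.5 and 16.7 CPM in the vector control and at 7.10, 7.79 and 8.07 CPM in Malt1-WT, a 2.01-fold drop without overlap (log2 fold change -1.01, SE 0.108, adjusted p = 1.25e-11). Kif7, a regulator of Hedgehog signalling at the cilium tip, had 6 to 20 counts per library and was not called (-0.09, adjusted p = 0.879). Opposite-strand genes overlap 20.3% of its exon bases, among them Ticrr, which was at 0.462-fold. Kif9, Kif19a and Kif27 had at most 11 counts in a library, and Kif6 had 0.

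Among the 7 remaining motors, 4 were tested. Kif21a and Kif21b restrain microtubule growth. Kif21a was at 31.4, 31.4 and 29.7 CPM in the vector control and at 20.1, 19.9 and 20.2 CPM in Malt1-WT (log2 fold change -0.62, SE 0.072, adjusted p = 1.46e-10). Kif21b was not called (-0.02, adjusted p = 0.848), and its groups overlapped, from 32.4 to 42.5 CPM in the vector control alone. Kif28 was the family's one gene at least 2-fold higher: it had 6, 9 and 10 counts in the vector control and 21, 26 and 18 counts in Malt1-WT, or 0.424 ± 0.0846 and 1.18 ± 0.123 CPM (1.45, SE 0.400, adjusted p = 1.47e-03). That is a low level, and 4.36% of its exon bases are shared on the same strand with Ahctf1, which was at 0.904-fold. Kif26a had at most 7 counts in a library, and Kif12 and Kif26b had 0, as had the mitotic motor Kif2b.

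Over all 31 tested motors, 5 were higher, 19 lower and 7 not called, beside 31% higher and 30.2% lower among all tested genes, and their median log2 fold change was -0.35. The symbols that are no motor genes added Kif1bp, at 44.9 ± 1.98 and 47.7 ± 2.58 CPM and not called (adjusted p = 0.208). Kif16bos had 3 counts in all, and the 3 pseudogenes had 0.

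**Figure D4:**
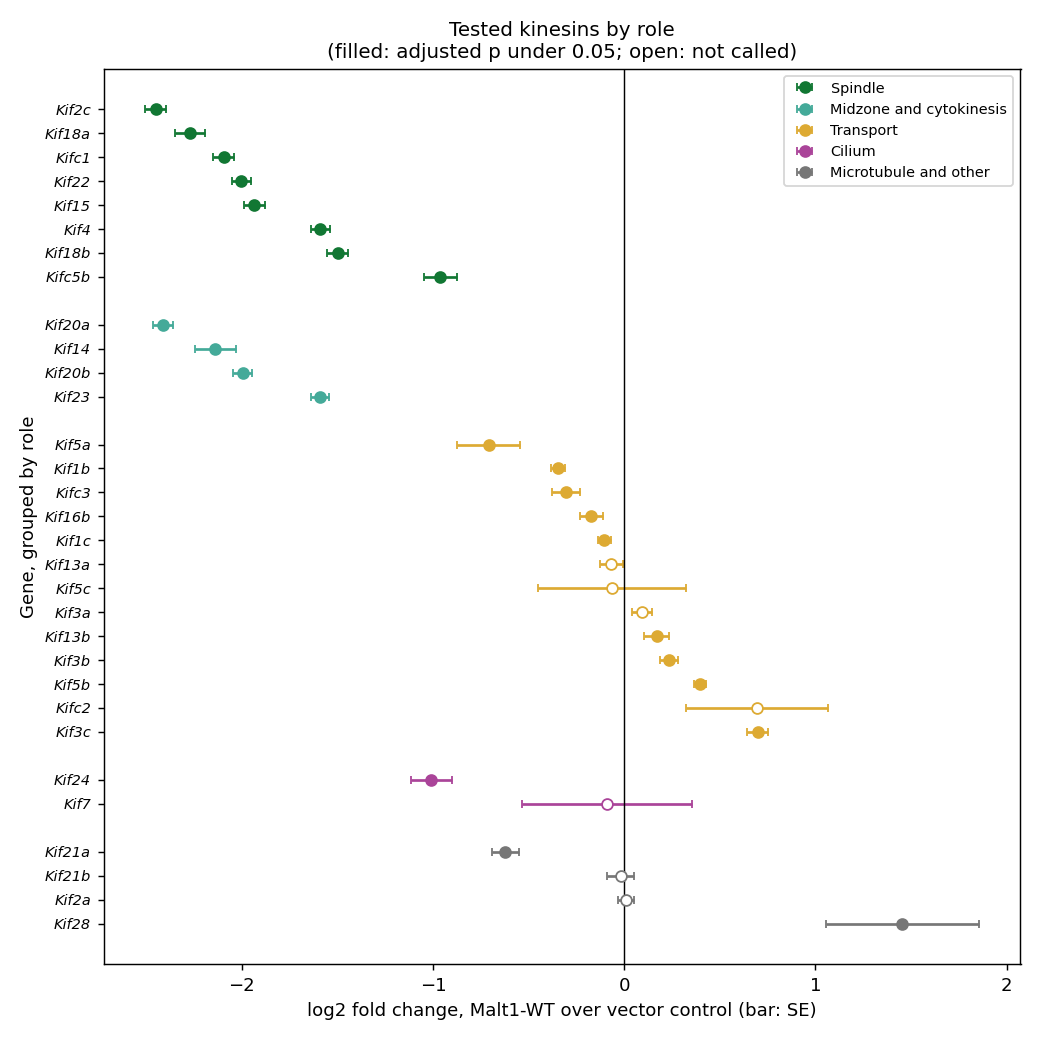
Log2 fold change of the 31 tested kinesin motors, Malt1-WT over vector control, with SE as bars, grouped by role; filled points passed an adjusted p of 0.05. The mitotic motors (spindle and midzone) lie between -2.45 and -0.96, and the transport motors between -0.71 and 0.70.

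To compare levels between genes, CPM was divided by the exon length in kilobases. This length joins all annotated exons of a gene and can far exceed its longest transcript. For Kif23 it is 7901 bases beside 3398 for the longest transcript, and for Kif18b 3572 beside 3326. The orders and the sums per kb that follow depend on this choice, and no other length was tried. In the vector control Kif5b led at 36.0 CPM per kb, followed by Kif1c at 28.5, Kif20a at 27.8, Kifc1 at 27.2 and Kif2c at 26.6 CPM per kb. The levels of these last 4 genes lie close together. In Malt1-WT the order changed: Kif5b was at 47.3 and Kif1c at 26.5 CPM per kb, then came Kif3b at 15.9, Kif3a at 15.5 and Kif2a at 13.4 CPM per kb. The highest mitotic motor there was Kif18b, at 8.59 CPM per kb.

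Levels per kb were summed per library over the 42 listed motor genes. Mitotic kinesins made up 57.8%, 58.0% and 57.1% of this sum in vector control replicates 1 to 3. In Malt1-WT replicates 1 to 3 they made up 25.6%, 25.6% and 25.0%. The sum holds Kif11 at almost 0. It leaves out the mitotic kinesin Cenpe, whose symbol does not begin with Kif, at 23.3 CPM per kb in the vector control and 5.49 in Malt1-WT. Kif2a, at 13.3 CPM per kb in the vector control and 13.4 in Malt1-WT, is summed with the other motors and not with the mitotic ones. The mitotic sum was 206 to 209 CPM per kb in the vector control and 54.8 to 55.7 CPM per kb in Malt1-WT, while the transport sum was 127 to 133 and 140 to 143 CPM per kb. Kif5b alone held 9.87% to 10.1% of the kinesin transcripts in the vector control and 21.3% to 22.2% in Malt1-WT. The transport share was 35.6% to 36.3% in the vector control and 64.5% to 65.1% in Malt1-WT, and shares of 1 total are not independent.

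**Figure D5:**
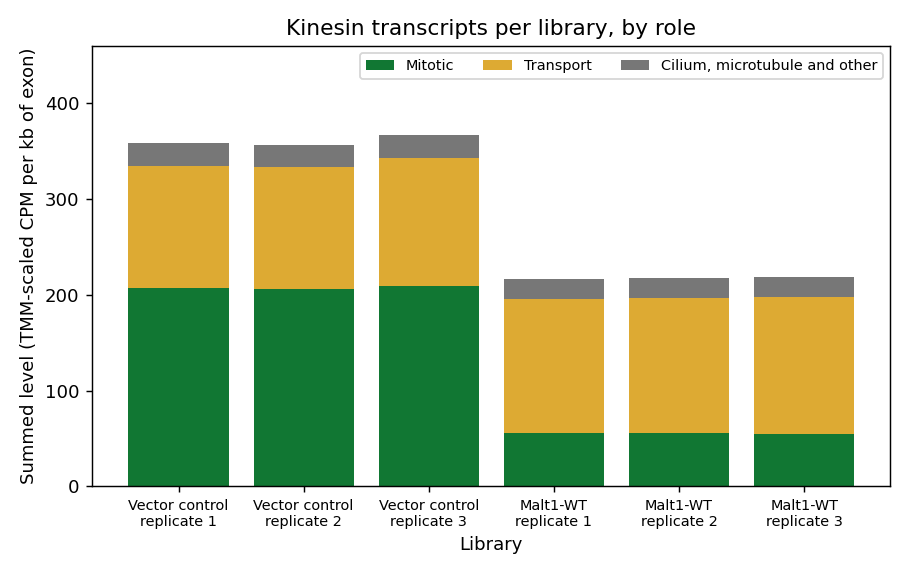
Summed level of kinesin motors per library, in TMM-scaled CPM per kb of exon, stacked by role, for 3 vector control and 3 Malt1-WT libraries. The total was 356 to 367 in the vector control and 217 to 219 in Malt1-WT, and the mitotic layer was 206 to 209 in the vector control and 54.8 to 55.7 in Malt1-WT.

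Transcripts of proteins that work with mitotic motors were lower too. All 20 listed partners were tested and all 20 fell, 19 of them by at least 2-fold, beside 30.2% lower and 4.77% at least 2-fold lower among all tested genes, and their median log2 fold change was -1.60. The largest drops were those of the kinetochore protein Cenpf (log2 fold change -2.51, adjusted p = 4.25e-36), the kinase Plk1 (-2.50, adjusted p = 3.66e-41), the kinesin-7 motor Cenpe and the checkpoint kinase Bub1b (-2.03, adjusted p = 3.49e-40). Cenpe, a kinesin whose symbol does not begin with Kif, went from 201 ± 14.2 to 47.3 ± 2.38 CPM (-2.08, adjusted p = 1.75e-37). Prc1, which crosslinks midzone microtubules and recruits Kif4, had a log2 fold change of -1.92 (adjusted p = 1.13e-38), and the cargo of Kif20a one of -1.20 for Aurkb and -1.08 for Incenp. A CHR was present in 13 of the 17 partners with a promoter window (76.5%), beside 19.2% of all windows. Among the tested dynein and dynactin genes with a window it was present in 3 of 18 (16.7%).

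The adaptors and light chains that link transport kinesins to cargo were called about as often as other genes. Of 16 tested, 4 were higher, 6 lower and 6 not called, beside 61.2% called among all tested genes, and their median log2 fold change was 0.01. The light chains went apart: Klc3 (0.79, adjusted p = 3.97e-04) and Klc2 (0.52, adjusted p = 9.01e-08) rose, and Klc1 (-0.17, adjusted p = 1.57e-04) and Klc4 (-0.47, adjusted p = 4.84e-04) fell. Klc1 was the most abundant of the 4 by count, at 121 ± 2.45 and 107 ± 3.26 CPM. Borcs5, a subunit of the complex that couples lysosomes to kinesin, fell (-0.78, adjusted p = 8.82e-07), as did the scaffold Mapk8ip1 (-0.66, adjusted p = 8.13e-10). The scaffold Mapk8ip3 (0.21, adjusted p = 2.30e-05) and the mitochondrial adaptor Trak2 (0.21, adjusted p = 0.00453) rose.

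Dynein, the motor that moves towards the minus end, and its activator dynactin were compared as the opposing motor. Of 22 tested genes, 4 were higher, 10 lower and 8 not called, which is near the 61.2% called among all tested genes, and the median log2 fold change was -0.06. The heavy chain Dync1h1 rose from 632 ± 34.3 to 773 ± 38.9 CPM (0.29, adjusted p = 6.20e-08), as did the light intermediate chain Dync1li1 (0.65, adjusted p = 4.26e-20), Ndel1 (0.72, adjusted p = 5.61e-22) and Actr10 (0.18, adjusted p = 5.01e-05). Nde1, a close relative of Ndel1 with a role in mitosis, fell from 123 ± 1.49 to 58.4 ± 1.49 CPM (-1.07, adjusted p = 6.86e-28), and Actr1a of dynactin fell by 0.39 on the log2 scale.

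Transcripts of tubulins, which form the track, and of microtubule proteins were also compared. Of 22 tested tubulins and microtubule proteins, 5 were higher, 13 lower and 4 not called, beside 31% higher and 30.2% lower among all tested genes, and the median log2 fold change was -0.20. Stmn1, which binds free tubulin (-1.52, adjusted p = 1.08e-28), the spindle proteins Tacc3 (-1.31, adjusted p = 2.02e-33) and Ckap5 (-0.93, adjusted p = 1.61e-31) and the tubulin Tubb4b (-0.86, adjusted p = 1.85e-29) had the largest drops. Map7, which recruits Kif5b to microtubules, rose from 1.41 ± 0.198 to 2.20 ± 0.388 CPM (0.64, adjusted p = 0.0365). The others that rose were Mapre2 (0.57), Mapre3 (0.29), Map1b (0.20) and Tubb6 (0.11).

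Regulators that control cell cycle transcription were listed because mitotic kinesins are among their known targets. Of 20 tested, 3 rose, 11 fell and 6 were not called, beside 61.2% called among all tested genes, and the median log2 fold change was -0.27. Foxm1, an activator of G2 and M genes, went from 199 ± 7.64 to 57.9 ± 5.29 CPM (-1.78, SE 0.045, adjusted p = 4.99e-34), and the repressors E2f7 (-1.82, adjusted p = 9.76e-25) and E2f8 (-1.87, adjusted p = 4.20e-35) fell as well. Cdkn1a, which encodes the inhibitor p21, was at 102, 112 and 110 CPM in the vector control and at 1145, 1145 and 1165 CPM in Malt1-WT (3.42, SE 0.032, adjusted p = 1.63e-55). The other risers were Rb1 (0.66, adjusted p = 4.73e-09) and E2f5 (0.17, adjusted p = 0.0339). Whether these regulators have a part in the kinesin values was not tested.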

How the data were processed

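Total RNA of 6 E0771 libraries was extracted with RNAiso Plus, made into libraries with a directional NEBNext Ultra II kit and sequenced in paired 150-base reads, per the labels' protocols. Per the submitters' processing notes, the tools were STAR 2.7.3a, featureCounts 1.6.3 and Trim Galore 0.6.0, with the builds GRCm38.p6 and mm10. Which annotation was counted, and whether by strand, is not stated in the labels or headers. The authors deposited raw counts per gene symbol, 1 column per library, with no normalisation per the file headers and values. In the same table the authors deposited a log2 fold change and mean log2 expression, a score (the t statistic), and a p-value and adjusted p-value of their own comparison, made with a tool that no label or header names.

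Groups and replicate numbers came from the sample titles. Counts were fitted over all genes with edgeR 4.0.16 in R 4.3.3 (filterByExpr with a minimum count of 10, TMM scaling, robust quasi-likelihood test, no block), with Benjamini-Hochberg adjustment over 13594 tested genes and a threshold of 0.05. All adjusted p-values other than the authors' come from this fit unless DESeq2 1.42.0 or a left-out library is named. CPM are TMM-scaled counts. An SE is the log2 fold change divided by the root of the test's F statistic. The script was tested on simulated data in which far fewer genes changed than were called here. That test therefore does not show how the scaling or the calls behave in data like these. No group of genes was tested as a set, and a list is described by its count of calls and its median beside all tested genes. Positions, exon lengths and overlaps came from GENCODE M21 (GRCm38), which may differ from the annotation used for counting, and promoter windows came from RefSeq (GRCm38.p6). Motifs were searched on both strands. Values of genes that overlap others on the opposite or the same strand are uncertain, and not every such overlap is reported here.

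The members and all lists were chosen with earlier results of these data known. Values per library are given for members called with a log2 fold change of at least 1 in size, the most abundant member of each role list, members called against the majority of their list, and Kif11, Kif2c, Kif20a and Kif23. In the other lists the up to 4 called members with the largest change and those called against the majority are named, together with further partners named after their values were seen (Prc1, Racgap1, Aurkb, Incenp, Klc1, Klc4). The alternatives were other scalings, no filter, DESeq2, a replicate block and leaving out each library.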

Additional observations from a re-analysis of the deposited data

How the results depend on the processing

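The 12 other settings were 3 scalings, no filter on low counts, DESeq2, a replicate block and leaving out each of the 6 libraries. In all of them 12 mitotic kinesins were lower, 3 to 5 transport kinesins higher and 4 to 6 lower, and 7632 (DESeq2) to 8534 (library size only) genes passed the threshold. Leaving out 1 library gave 7878 to 8074 genes, 12 mitotic kinesins lower, 3 to 5 transport kinesins higher and 4 to 5 lower, and medians of -2.02 to -1.98 for the mitotic and -0.11 to 0.08 for the transport kinesins. The transport median, at -0.06 with all libraries, was thus above 0 without vector control replicate 1 (0.0604) or 2 (0.0798) or without Malt1-WT replicate 2 (0.0729), so no direction is given for it. With library size as the only scaling the mitotic median was -2.07. Of 384 values of single genes under these settings, 361 kept their direction and side of the threshold, 7 lost the call and 2 gained it. The other 14 changed sign and belong to 4 genes that are called in none of these settings. Kif2a (0.01) was at -0.0099 with upper quartile scaling, -0.068 with library size only and -0.0039 with no filter, and leaving out 1 library gave -0.0219 to 0.0309 for Kif2a, -0.3373 to 0.1177 for Kif5c, -0.7792 to 0.275 for Kif7 and -0.1201 to 0.0825 for Kif21b. Beside the cases given with the results, Kif13b lost its call with library size only (adjusted p = 0.224) and with no filter (0.0603), and Kif13a gained one with library size only (log2 fold change -0.14, adjusted p = 0.0296). The cause was not tested. With the replicate number as a block, 8168 genes passed, with 12 mitotic kinesins lower and 4 transport kinesins higher and 5 lower, and no kinesin call changed. The correlations of same-numbered libraries (-0.041, -0.036 and 0.007) do not show that the numbers pair them, so the libraries share only a number. Motors with few counts, such as Kif17, were too shallow to test.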
